A study of Mus musculus with 26 samples.

Results

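The genes described here are 33 listed genes of the oligodendrocyte lineage and of myelin, read in entorhinal cortex and hippocampus of aged mice. They were matched by symbol or older alias in the array's annotation, and each was read by its probe set of 1 symbol with the highest mean over all 26 arrays. A value was obtained for 32 of the 33, out of 18194 genes with such a probe set. The exception was Trf, the iron carrier transferrin, whose probe set is annotated to a second gene as well. By their mean over all 26 arrays, all 32 lay above the filter on low values, which left 14941 genes in the tests.

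Oligodendrocytes wrap the axons of the central nervous system in myelin, a compacted membrane that speeds conduction and lets the cell support the axon. They arise from precursor cells that carry the receptor Pdgfra and the proteoglycan Cspg4 (NG2). Under Olig2, Sox10, Nkx6-2 and finally Myrf, such cells leave the cycle and switch on the genes of the myelin sheath. In the adult brain myelin is dense in white matter tracts, and precursors are spread through grey and white matter alike.

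Each region was represented by 13 arrays in 4 groups. They were APP transgenic mice given a lentivirus that carries BDNF (n = 4), APP transgenic mice given a GFP lentivirus (n = 4), non-transgenic mice given the GFP lentivirus (n = 2) and non-transgenic sham mice (n = 3). The vector went into the entorhinal cortex, and both regions were taken 4 weeks later. BDNF is a secreted growth factor of neurons, GFP a fluorescent protein that serves as the vector control, and APP the precursor protein of amyloid. The promoter behind the APP transgene, the exact age and any link between an entorhinal and a hippocampal array of 1 animal are not given in the labels. Values are log2 expression after RMA, a method that brings all arrays to a common distribution, so 1 unit is a doubling. Levels of different genes cannot be set against each other on this scale.

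The region labels could be checked on other genes. Of 8 cortical marker genes 6 were called higher in entorhinal cortex, with a median log2 difference of 0.97, and of 10 dentate granule cell markers 7 were called lower there, with a median of -0.58. Replicate 1 of hippocampal sham mice stood apart in choroid plexus genes, with a mean of 8.46 against 5.73 to 6.06 on the other hippocampal arrays. Array medians lay between 5.51 and 5.58.

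The start regions of 4 members are printed, chosen after their values were seen. Mobp had the largest difference between the regions, and Mog is the reference of the correlations given further on. Opalin held both motifs searched, as Cnp and Mag did too, and Pdgfra went in the direction opposite to the mature genes. Windows of 300 bases, 250 before and 50 after a start site, were taken from RefSeq (GRCm38.p6) for 23 of the 33 members. Windows on 1 chromosome were left out for members but kept in the set of all windows. Trf, which had no value on the arrays, could not be matched. The windows were searched on both strands for the core motif of SOX factors (ACAAAG or ACAATG) and for that of MYRF (CTGGCAC or CTGGTAC), and matches of either are in capitals. Mobp, at chr9:120149492-120149791 on the plus strand, held 6 SOX matches. Mog, at chr17:37023349-37023648 on the minus strand, held 1 MYRF match that begins 83 bases before the start. Opalin, at chr19:41077064-41077363 on the minus strand, held 2 SOX matches and 1 MYRF match. Pdgfra, at chr5:75152001-75152300 on the plus strand, held neither.
Mobp: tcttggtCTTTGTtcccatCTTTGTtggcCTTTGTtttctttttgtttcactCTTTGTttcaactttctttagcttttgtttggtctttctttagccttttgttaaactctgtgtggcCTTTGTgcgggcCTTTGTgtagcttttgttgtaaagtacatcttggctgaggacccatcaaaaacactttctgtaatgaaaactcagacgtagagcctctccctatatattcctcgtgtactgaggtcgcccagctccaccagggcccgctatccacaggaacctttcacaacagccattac
Mog: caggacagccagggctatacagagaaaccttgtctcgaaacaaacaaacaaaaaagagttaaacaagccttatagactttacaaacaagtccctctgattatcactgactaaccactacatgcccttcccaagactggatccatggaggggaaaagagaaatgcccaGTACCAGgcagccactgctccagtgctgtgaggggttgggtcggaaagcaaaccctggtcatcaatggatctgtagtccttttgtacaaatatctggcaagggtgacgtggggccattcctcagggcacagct
Opalin: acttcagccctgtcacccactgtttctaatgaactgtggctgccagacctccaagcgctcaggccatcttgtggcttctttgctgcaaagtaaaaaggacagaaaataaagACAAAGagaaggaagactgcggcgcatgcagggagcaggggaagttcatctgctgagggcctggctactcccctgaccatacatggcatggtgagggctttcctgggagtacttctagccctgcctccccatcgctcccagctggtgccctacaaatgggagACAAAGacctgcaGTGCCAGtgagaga
Pdgfra: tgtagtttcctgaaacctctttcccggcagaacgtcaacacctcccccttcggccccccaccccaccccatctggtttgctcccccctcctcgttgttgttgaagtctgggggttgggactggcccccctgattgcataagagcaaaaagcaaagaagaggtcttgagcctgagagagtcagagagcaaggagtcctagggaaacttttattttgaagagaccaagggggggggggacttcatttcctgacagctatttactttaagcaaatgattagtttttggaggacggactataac
A MYRF core was found in 18.8% of the 32 windows of members and in 7.10% of all 32851 windows of that length. It lay in windows of 5 members, namely Cnp, Mag, Mog, Opalin and Tmem125, and 2 of the 6 windows belong to Mag and overlap. A SOX core was found in 34.4% of the members' windows and in 28.6% of all windows. These matches describe the letters of the windows only.

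The first comparison set entorhinal cortex against hippocampus over all 8 groups. Genes of mature oligodendrocytes were lower in entorhinal cortex and both precursor genes were higher. Of the 30 members that are not precursor genes, 28 were called lower (adjusted p under 0.05), and Pdgfra and Cspg4 were called higher. Among all genes tested 31.3% were called lower and 20.6% higher, so that a called difference between the regions was common on these arrays. The median log2 difference of the 32 members was -0.98, beside -0.03 over all genes tested. For 20 members, all lower in entorhinal cortex, no entorhinal array reached the lowest hippocampal array; this held for 6.63% of all genes. In tissue of mixed cells, fewer oligodendrocytes and less RNA per oligodendrocyte cannot be told apart.

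**Figure D1:**
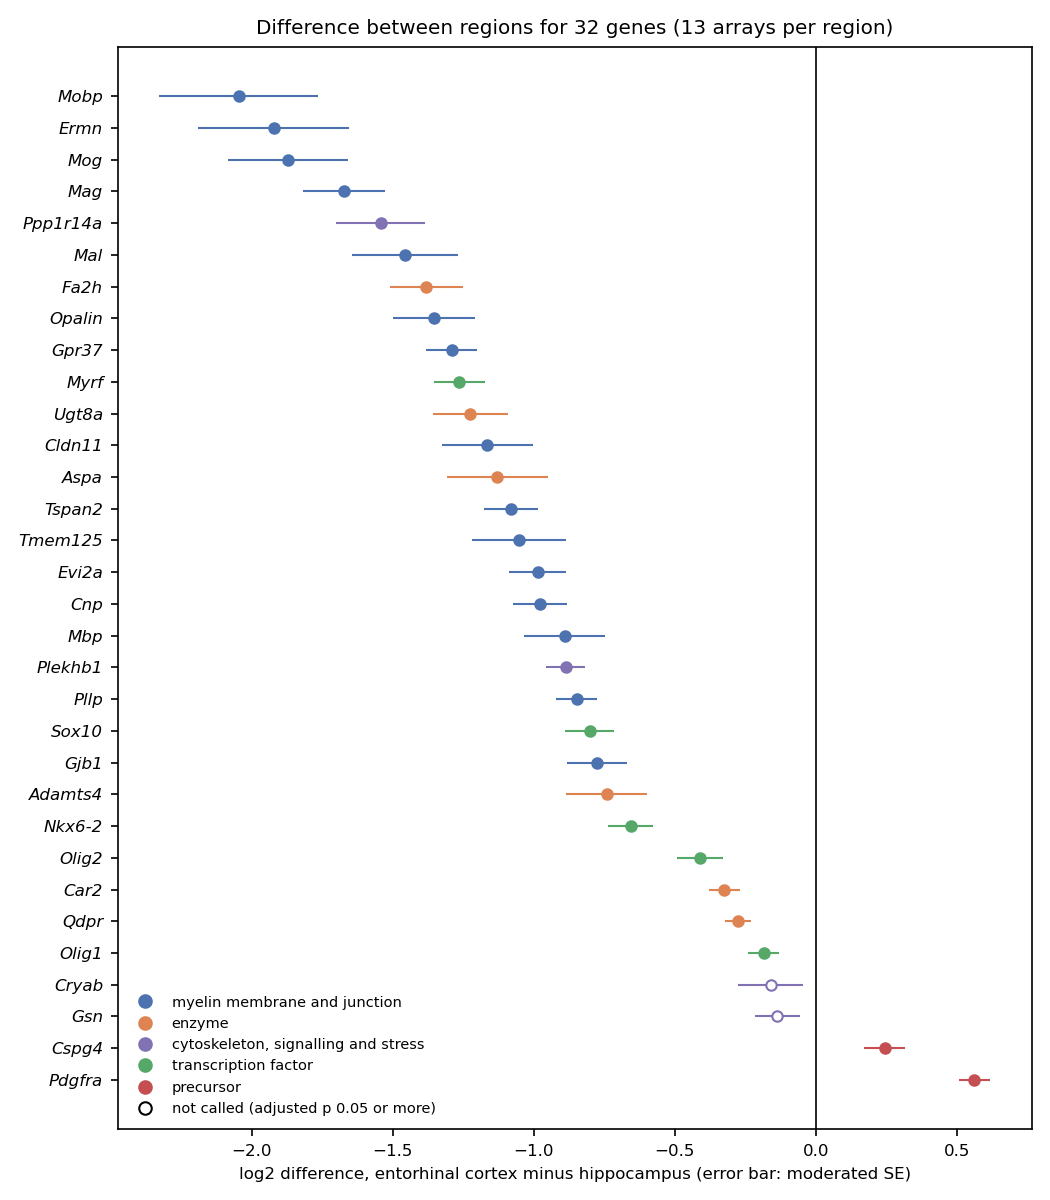
Log2 difference between entorhinal cortex and hippocampus (horizontal axis, moderated SE as error bars, 13 arrays per region) for 32 genes, coloured by role. Every gene but Cspg4 and Pdgfra lies left of 0, from -2.05 for Mobp to -0.14 for Gsn, and open circles mark Cryab and Gsn, which were not called.

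The largest differences, those of Mobp, Ermn, Mog and Mag, lay among the genes grouped as myelin membrane and junction. All 15 members of this role were called lower in entorhinal cortex, with a median log2 difference of -1.16. Mobp, a basic protein of compact myelin, read 10.46, 9.94, 7.36 and 9.64 in entorhinal cortex of transgenic mice with BDNF, 9.98, 9.14, 9.69 and 9.07 in those with GFP, 10.15 and 7.67 in non-transgenic mice with GFP and 9.36, 8.99 and 9.37 in sham mice. In hippocampus Mobp read 11.17, 10.87, 10.98 and 11.05 in the BDNF group, 10.80, 11.29, 11.45 and 12.01 in transgenic mice with GFP, 11.37 and 11.15 in non-transgenic mice with GFP and 11.63, 11.38 and 11.48 in sham mice. Even the lowest hippocampal array was above the highest entorhinal one, and the log2 difference was -2.05 ± 0.28 (SE, n = 13 per region, adjusted p = 2.49e-06), a level 4.13 times lower.

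Mog, a glycoprotein on the outermost face of the sheath, read 6.22, 5.99, 4.59 and 5.57 in entorhinal cortex of transgenic mice with BDNF, 6.63, 5.67, 5.69 and 5.31 in those with GFP, 6.06 and 4.21 in non-transgenic mice with GFP and 5.13, 4.91 and 5.97 in sham mice. In hippocampus Mog read 7.45, 7.09, 6.97 and 6.89 in the BDNF group, 6.90, 7.81, 7.54 and 7.88 in transgenic mice with GFP, 7.62 and 7.15 in non-transgenic mice with GFP and 7.58, 7.26 and 7.21 in sham mice. The regions did not overlap, with a log2 difference of -1.87 ± 0.21 (SE, n = 13 per region, adjusted p = 1.75e-07). Entorhinal values spread over more than 2 log2 units, so that arrays of 1 group differed more than the groups did.

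Mag, the glycoprotein of the membrane that faces the axon, read 7.55, 7.11, 6.0005 and 6.75 in entorhinal cortex of transgenic mice with BDNF, 7.60, 7.09, 7.09 and 6.84 in those with GFP, 7.14 and 6.23 in non-transgenic mice with GFP and 7.10, 6.76 and 6.89 in sham mice. In hippocampus Mag read 8.50, 8.30, 8.21 and 8.30 in the BDNF group, 8.25, 8.63, 9.09 and 8.94 in transgenic mice with GFP, 8.75 and 8.17 in non-transgenic mice with GFP and 8.89, 8.76 and 8.73 in sham mice. Its log2 difference was -1.67 ± 0.15 (SE, n = 13 per region, adjusted p = 3.06e-09), again with no overlap. Mal, a lipid-raft protein of myelin vesicles, read 10.04, 9.70, 7.89 and 9.45 in entorhinal cortex of transgenic mice with BDNF, 9.68, 9.39, 9.51 and 8.85 in those with GFP, 9.87 and 8.48 in non-transgenic mice with GFP and 9.57, 9.37 and 9.51 in sham mice. In hippocampus Mal read 10.80, 10.62, 10.41 and 10.30 in the BDNF group, 10.43, 10.73, 10.81 and 11.14 in transgenic mice with GFP, 10.81 and 10.71 in non-transgenic mice with GFP and 11.09, 11.01 and 11.03 in sham mice. It differed by -1.46 ± 0.19 (SE, n = 13 per region, adjusted p = 1.01e-06), with no overlap.

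Gjb1, the connexin of oligodendrocyte gap junctions, read 6.04, 5.53, 4.97 and 5.74 in entorhinal cortex of transgenic mice with BDNF, 6.07, 5.66, 5.85 and 5.60 in those with GFP, 5.93 and 5.56 in non-transgenic mice with GFP and 5.85, 5.79 and 5.61 in sham mice. In hippocampus Gjb1 read 6.39, 6.45, 6.32 and 6.14 in the BDNF group, 6.38, 6.35, 6.99 and 6.79 in transgenic mice with GFP, 6.70 and 6.11 in non-transgenic mice with GFP and 6.63, 6.50 and 6.71 in sham mice. The difference of -0.78 ± 0.11 (SE, n = 13 per region, adjusted p = 2.19e-06) was the smallest of the 15, and the highest entorhinal and lowest hippocampal array nearly met. Ermn, a protein of the cytoskeleton beneath the myelin membrane, read 8.37, 8.05, 5.32 and 7.72 in entorhinal cortex of transgenic mice with BDNF, 8.10, 7.67, 7.68 and 7.11 in those with GFP, 7.92 and 6.01 in non-transgenic mice with GFP and 7.59, 6.91 and 7.79 in sham mice. In hippocampus Ermn read 9.53, 9.17, 8.88 and 8.92 in the BDNF group, 8.98, 9.41, 9.57 and 9.64 in transgenic mice with GFP, 9.40 and 8.89 in non-transgenic mice with GFP and 9.54, 9.45 and 9.27 in sham mice. With -1.92 ± 0.27 (SE, n = 13 per region, adjusted p = 2.95e-06) it had the second largest difference of the 32 members.

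The other 9 genes of this role differed by -0.85 to -1.35. Opalin, a glycoprotein of the myelin paranode, differed by -1.35, Gpr37, a receptor of maturing oligodendrocytes, by -1.29, and Cldn11, the claudin of the tight junctions between myelin layers, by -1.16. Tspan2, a tetraspanin of the myelin membrane, differed by -1.08 and Tmem125, a membrane protein, by -1.05, and Tmem125 was the only gene of this role whose regions overlapped. Evi2a and Cnp, the phosphodiesterase of non-compact myelin, differed by -0.99 and -0.98. Mbp, which holds the cytoplasmic faces of the sheath together, differed by -0.89 ± 0.14 (SE, n = 13 per region, adjusted p = 2.09e-05), and Pllp, a proteolipid of the membrane, by -0.85.

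For Mbp the probe sets did not read alike. Of its 8 probe sets, 6 were called lower in entorhinal cortex, by -0.89 to -1.80. The other probe sets of Mbp were called higher there, one by a log2 difference of 1.005 ± 0.117 and one by 0.19 ± 0.05 (SE, n = 13 per region). Which transcripts of Mbp each of them reads is not given in the annotation used. Over the 57 probe sets of the mature members that passed the filter, 54 were lower in entorhinal cortex and 50 were called lower, and those 2 of Mbp were the ones called higher.

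Enzymes of the list were lower too, over a wide range. All 6 were called lower in entorhinal cortex. Fa2h, which hydroxylates the fatty acids of myelin lipids, differed by -1.38 ± 0.13 and Ugt8a, which makes galactosylceramide, by -1.23 ± 0.13 (SE, n = 13 per region). Aspa, which splits N-acetylaspartate, read 7.85, 7.45, 5.73 and 7.12 in entorhinal cortex of transgenic mice with BDNF, 7.82, 6.96, 7.01 and 7.16 in those with GFP, 7.48 and 6.33 in non-transgenic mice with GFP and 6.90, 6.80 and 7.05 in sham mice. In hippocampus Aspa read 8.02, 7.86, 7.86 and 7.81 in the BDNF group, 8.13, 8.39, 8.20 and 8.37 in transgenic mice with GFP, 8.47 and 7.75 in non-transgenic mice with GFP and 8.44, 8.31 and 8.28 in sham mice. Its log2 difference was -1.13 ± 0.18 (SE, n = 13 per region, adjusted p = 1.50e-05), and the regions overlapped. The protease Adamts4 differed by -0.74, and its highest array was the hippocampal sham array with high choroid plexus genes, a link that was not tested. Carbonic anhydrase Car2 differed by -0.33 and Qdpr, which regenerates tetrahydrobiopterin, by -0.28. A second probe set of Qdpr differed by -0.89, more than 3 times as far on the log2 scale.

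A further list held 23 other genes of myelin lipid and sterol metabolism, mostly enzymes of synthesis or breakdown. Of these, 6 were called lower in entorhinal cortex and 5 higher, with a median log2 difference of 0.05. Nat8l, which makes N-acetylaspartate in neurons, differed by -0.46 and Cers2, a ceramide synthase for very long chains, by -0.45. Hmgcs1, an enzyme of the sterol pathway, was called higher by 0.35, and Elovl1, which elongates very long fatty acids, differed by -0.34. Against 31.3% lower and 20.6% higher among all genes, these shares did not stand out.

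Members of the cytoskeleton, signalling and stress group fell into a called and an uncalled pair. Ppp1r14a, an inhibitor of myosin phosphatase, read 6.11, 5.91, 5.04 and 5.31 in entorhinal cortex of transgenic mice with BDNF, 6.40, 5.33, 5.55 and 5.56 in those with GFP, 6.41 and 4.95 in non-transgenic mice with GFP and 5.26, 5.07 and 5.77 in sham mice. In hippocampus Ppp1r14a read 6.95, 6.88, 6.79 and 6.93 in the BDNF group, 7.10, 7.50, 7.25 and 7.41 in transgenic mice with GFP, 7.45 and 6.75 in non-transgenic mice with GFP and 7.46, 7.08 and 7.11 in sham mice. It differed by -1.54 ± 0.16 (SE, n = 13 per region, adjusted p = 3.80e-08) with no overlap. Plekhb1 differed by -0.89 ± 0.07, also with no overlap. The actin-severing protein Gsn differed by -0.14 ± 0.08 (SE, n = 13 per region, adjusted p = 0.154) and the small heat shock protein Cryab by -0.16 ± 0.11 (adjusted p = 0.256), and neither was called. Single probe sets of Gsn and Cryab other than the main ones were called lower, at -0.38 and -0.40.

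Transcription factors were lower in entorhinal cortex by steps. All 5 were called. Myrf, which turns on the myelin genes in cells that stop dividing, read 7.42, 7.23, 6.78 and 7.10 in entorhinal cortex of transgenic mice with BDNF, 7.18, 6.94, 7.08 and 6.78 in those with GFP, 7.23 and 6.53 in non-transgenic mice with GFP and 7.07, 6.92 and 7.25 in sham mice. In hippocampus Myrf read 8.30, 8.24, 8.17 and 8.02 in the BDNF group, 8.07, 8.47, 8.59 and 8.49 in transgenic mice with GFP, 8.37 and 7.76 in non-transgenic mice with GFP and 8.54, 8.42 and 8.53 in sham mice. The difference of -1.27 ± 0.09 (SE, n = 13 per region, adjusted p = 1.32e-10) was as large as those of the sheath genes, with no overlap.

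Sox10, which acts in precursors and mature cells alike, read 8.13, 7.98, 7.44 and 7.95 in entorhinal cortex of transgenic mice with BDNF, 8.11, 7.92, 7.98 and 7.62 in those with GFP, 8.13 and 7.96 in non-transgenic mice with GFP and 8.30, 8.14 and 7.99 in sham mice. In hippocampus Sox10 read 8.59, 8.65, 8.56 and 8.63 in the BDNF group, 8.53, 8.68, 9.31 and 8.99 in transgenic mice with GFP, 8.90 and 8.54 in non-transgenic mice with GFP and 8.92, 9.004 and 9.003 in sham mice. It differed by -0.80 ± 0.09 (SE, n = 13 per region, adjusted p = 7.46e-08), with no overlap. Nkx6-2, a homeobox factor of maturing cells, differed by -0.66 ± 0.08. Its entorhinal mean of 4.16 lay under the filter of 4.33, and its hippocampal mean of 4.81 lay above. It thus passed the filter only through hippocampus, where it was high, and its place among the called members rests on that.

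Olig2, needed to specify the lineage and active in both stages, read 7.45, 7.41, 6.81 and 7.48 in entorhinal cortex of transgenic mice with BDNF, 7.40, 7.34, 6.90 and 7.48 in those with GFP, 7.55 and 7.55 in non-transgenic mice with GFP and 7.46, 7.58 and 7.62 in sham mice. In hippocampus Olig2 read 7.64, 7.98, 7.69 and 7.58 in the BDNF group, 7.94, 7.77, 7.86 and 7.43 in transgenic mice with GFP, 7.91 and 7.88 in non-transgenic mice with GFP and 7.81, 8.06 and 7.96 in sham mice. It differed by -0.41 ± 0.08 (SE, n = 13 per region, adjusted p = 2.06e-04), and the regions overlapped. Olig1, a related factor of maturation and repair, read 10.78, 10.81, 10.25 and 10.91 in entorhinal cortex of transgenic mice with BDNF, 10.73, 10.77, 10.80 and 10.68 in those with GFP, 10.97 and 10.91 in non-transgenic mice with GFP and 11.01, 11.06 and 11.02 in sham mice. In hippocampus Olig1 read 10.92, 11.04, 10.98 and 10.95 in the BDNF group, 10.97, 10.97, 10.89 and 11.02 in transgenic mice with GFP, 11.12 and 10.88 in non-transgenic mice with GFP and 11.14, 11.15 and 11.31 in sham mice. Its difference was the smallest among the called members, -0.18 ± 0.06 (SE, n = 13 per region, adjusted p = 0.00731). With the non-transgenic groups alone it was -0.12 (adjusted p = 0.331) and no longer called.

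Precursor genes went the other way. Pdgfra, the receptor through which PDGF-A keeps precursors dividing, read 9.46, 9.77, 9.97 and 9.87 in entorhinal cortex of transgenic mice with BDNF, 9.71, 9.95, 9.90 and 9.80 in those with GFP, 10.03 and 10.24 in non-transgenic mice with GFP and 10.07, 10.33 and 10.11 in sham mice. In hippocampus Pdgfra read 9.30, 9.45, 9.40 and 9.21 in the BDNF group, 9.33, 9.32, 9.09 and 9.32 in transgenic mice with GFP, 9.54 and 9.57 in non-transgenic mice with GFP and 9.35, 9.53 and 9.63 in sham mice. It was higher in entorhinal cortex by 0.56 ± 0.06 (SE, n = 13 per region, adjusted p = 2.83e-08), and the regions met at 1 entorhinal array of the BDNF group that read 9.46.

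Cspg4, the NG2 proteoglycan, which pericytes carry as well, read 6.37, 6.44, 6.87 and 6.57 in entorhinal cortex of transgenic mice with BDNF, 6.84, 6.55, 6.54 and 6.73 in those with GFP, 6.73 and 6.71 in non-transgenic mice with GFP and 6.62, 7.03 and 6.83 in sham mice. In hippocampus Cspg4 read 6.31, 6.38, 6.51 and 6.17 in the BDNF group, 6.09, 6.52, 6.46 and 6.77 in transgenic mice with GFP, 6.46 and 6.58 in non-transgenic mice with GFP and 6.50, 6.45 and 6.49 in sham mice. Its difference of 0.24 ± 0.07 (SE, n = 13 per region, adjusted p = 0.00682) came with wide overlap. It missed the threshold with only the non-transgenic groups (0.27, adjusted p = 0.0658) and with only the transgenic groups (0.21, adjusted p = 0.0544). A second probe set of Cspg4 differed by 0.13 ± 0.08 (SE, n = 13 per region) and was not called, nor was one of Pdgfra at 0.07. Of the 5 precursor probe sets that passed the filter, 3 were called higher and 0 were lower. Of 12 further genes of precursors and newly formed cells, 7 were called higher in entorhinal cortex, 1 was called lower and the median was 0.23. The 4 with the largest called differences were Bmp4 (0.79), Sox6 (0.56), Lhfpl3 (0.55) and Cacng4 (0.55), and the one called lower was Tnr (-0.20).

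Other genes of mature oligodendrocytes moved with the members. Of 39 such genes outside the list, 33 were called lower in entorhinal cortex and 1 higher, with a median log2 difference of -0.51. The largest were Anln (-1.76), Tmem88b (-1.63), the sphingosine receptor S1pr5 (-1.53) and Bcas1 (-1.15). Edil3 was called higher, by 0.44. Markers of other cells differed between the regions too. Of 11 meningeal genes 10 were called higher in entorhinal cortex (median 0.89), and of 8 ependymal genes 7 were called lower (median -0.73). Of 14 astrocyte genes 5 were called higher and 2 lower (median 0.02), and one of the latter was the filament gene Gfap, at -1.46. Their part in the members' difference was not tested.

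The direction held in each of the 4 groups taken alone. All 30 mature members had a lower mean in entorhinal cortex in every group, and Pdgfra and Cspg4 a higher one. The median difference of the mature members was -0.82 in transgenic mice with BDNF, -0.98 in transgenic mice with GFP, -1.12 in non-transgenic mice with GFP and -1.19 in sham mice. Differences of these medians between groups were not tested as such. Whether BDNF or the transgene acted unequally in the regions was tested in fits given further on, which called no member.

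**Figure D2:**
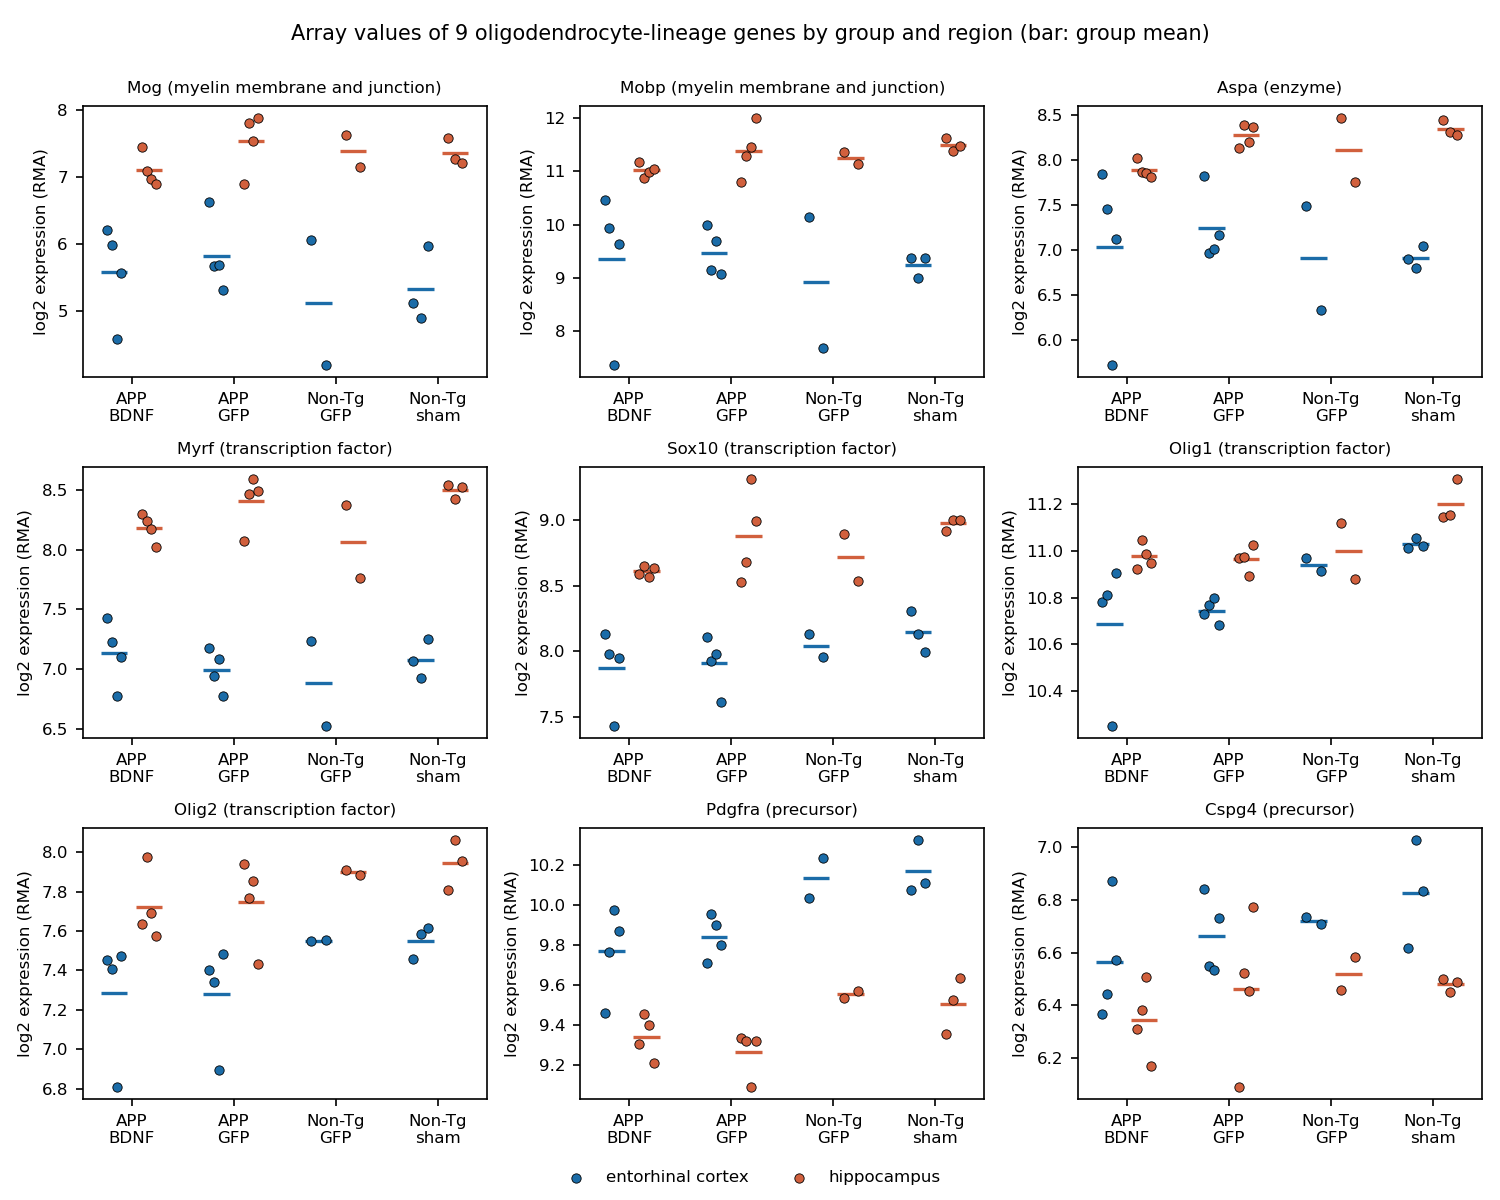
Log2 expression (vertical axis, a different range for each gene) of 9 genes on each array, by group, with entorhinal cortex in blue and hippocampus in orange; bars are group means. Mog, Mobp, Myrf and Sox10 separate the regions completely, Olig1 hardly does, and Pdgfra and Cspg4 are higher in entorhinal cortex.

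Within entorhinal cortex, 2 arrays held far less myelin RNA than the other 11. They were replicate 3 of the transgenic BDNF group and replicate 2 of the non-transgenic GFP group. Either of them was the lowest entorhinal array for 28 of the 30 mature members, and for 16 of them this pair made up the lowest positions. Mobp read 7.36 and 7.67 there and at least 8.99 on the other 11, and Ermn read 5.32 and 6.01 against at least 6.91. The pair thus came from different genotypes and vectors.

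Other gene lists were mostly inside the range of the other 11 arrays. The mean of the 2 precursor members was 8.42 and 8.47, inside the range of 7.91 to 8.68 of the other arrays. The mean of the 39 other mature oligodendrocyte genes was 7.29 and 7.33, below the 7.48 to 7.78 of the other 11. Means of excitatory neuron, astrocyte, dentate granule and thalamic genes lay inside the range of the others on both arrays, except excitatory neuron genes on the GFP array (10.39). Meningeal genes on the BDNF array (7.12 against 7.23 to 8.47) and microglial and cortical genes on the GFP array (8.37 against 8.50 to 9.46, and 8.49 against 8.56 to 8.97) fell just under the others. Striatal genes were just above on the GFP array (8.50 against at most 8.49), and peripheral myelin genes were below on the BDNF array and above on the GFP array (6.53 and 7.20 against 6.64 to 7.09). The part of dissection in these values was not tested.

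Replicates were spread more widely for these genes than for a typical gene, most of all in entorhinal cortex. The median pooled SD of the 32 members within groups was 0.33 in entorhinal cortex and 0.19 in hippocampus, beside 0.14 and 0.13 over all genes. Without the 2 low arrays it was 0.22 in entorhinal cortex, beside 0.13 over all genes. The SD of 30 of the 32 members was above the all-gene median in entorhinal cortex, with and without the pair, and that of 28 in hippocampus. In entorhinal cortex the most variable members were Mobp (SD 1.02), Ermn (0.97) and Mog (0.73). Car2 (0.13), Pllp (0.13), Qdpr (0.14) and Pdgfra (0.16) varied there about as much as a typical gene. Without the 2 low arrays 28 members were called lower and the median difference between the regions was -0.83.

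**Figure D3:**
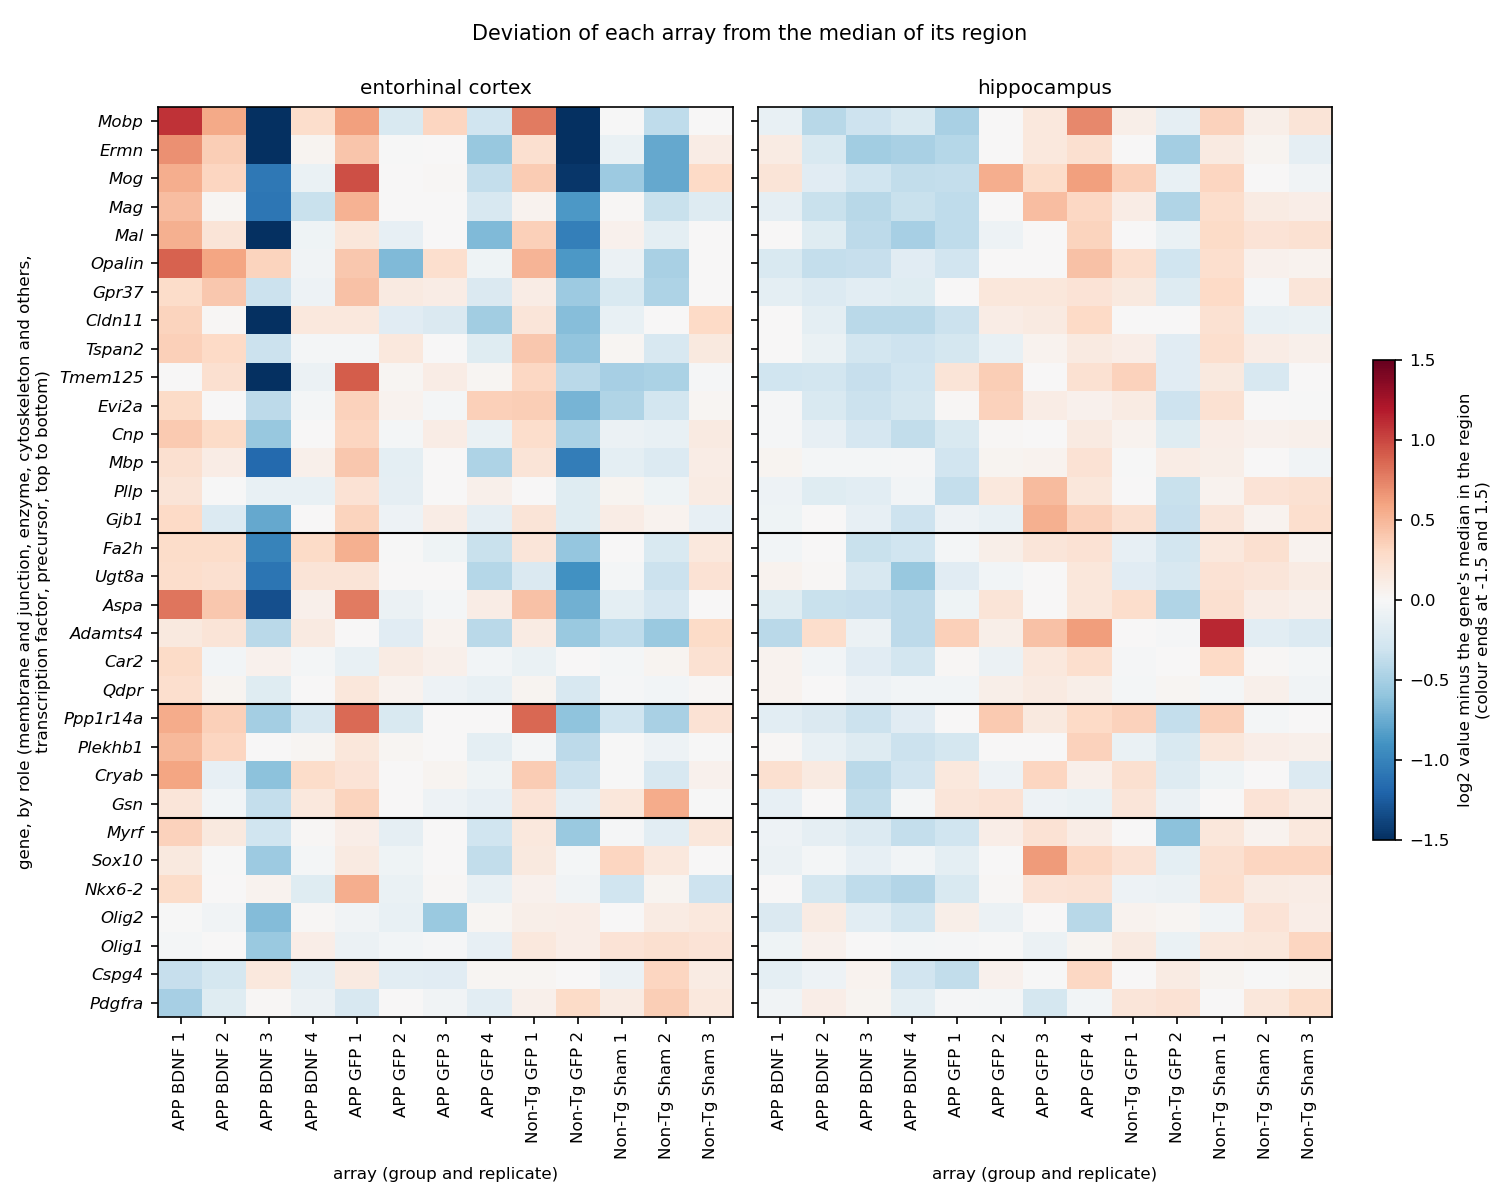
Log2 value of each array minus the gene's median in that region (colour) for 32 genes in rows, by role, and 13 arrays per region in columns. In entorhinal cortex, replicate 3 of APP BDNF and replicate 2 of Non-Tg GFP are blue for most myelin genes, with Opalin an exception on the first, and not for Pdgfra; in hippocampus the deviations are smaller, and the arrays of APP BDNF are mostly pale blue.

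Mature genes rose and fell together from array to array. With Mog as the reference, the 29 other mature members had a median Pearson r of 0.82 over the 13 entorhinal arrays, and of 0.69 once the 2 arrays farthest from the median of Mog, the same low pair, were left out. In hippocampus the median r was 0.68, and 0.70 without the 2 farthest arrays. Over all other genes tested the medians were 0.01 and -0.03. These arrays share groups and the normalization, and 62 relations of this kind were computed.

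The tightest relation in entorhinal cortex was that of Cnp, with r = 0.94 (permutation p = 1.00e-05, the smallest the 100000 permutations can give), Spearman rho = 0.97 (permutation p = 1.00e-05, adjusted 2.48e-04) and r = 0.91 without the pair. Lineage factors were looser. Sox10 had r = 0.38 (permutation p = 0.192) and rho = 0.33 (permutation p = 0.27, adjusted 0.31), falling to r = 0.09 without the pair. Olig1 had r = 0.14 (permutation p = 0.645) and rho = -0.12 (permutation p = 0.695, adjusted 0.706), and r = -0.42 without the pair. Myrf kept close to Mog, with r = 0.87 (permutation p = 1.30e-04), rho = 0.86 (permutation p = 3.20e-04, adjusted 0.0018) and r = 0.72 without the pair.

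Pdgfra ran against Mog in entorhinal cortex, with r = -0.65 (permutation p = 0.0153), rho = -0.64 (permutation p = 0.0205, adjusted 0.0318) and r = -0.64 without the pair. In hippocampus Pdgfra had r = -0.16 (permutation p = 0.598) and rho = -0.10 (permutation p = 0.737, adjusted 0.737), and r = -0.04 without the 2 farthest arrays. The other precursor gene, Cspg4, had r = -0.33 in entorhinal cortex (permutation p = 0.263), rho = -0.31 (permutation p = 0.296, adjusted 0.333) and r = -0.26 without the pair. In hippocampus Cspg4 ran with Mog, at r = 0.65 (permutation p = 0.015), rho = 0.56 (permutation p = 0.05, adjusted 0.0659) and r = 0.47 without the 2 farthest arrays.

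Ranked by the lower of the correlations in the 2 regions, the genes most like Mog over 13 arrays each were Ermn (0.86), Galnt6 (0.85), Tmem88b (0.84), Prr5l (0.82), Cnp (0.82) and Ppp1r14a (0.81). Of the 30 most similar genes 12 were members.

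The second comparison asked what BDNF did in transgenic mice. In hippocampus 30 of 32 members had a lower mean with BDNF than with GFP, by a median log2 difference of -0.26 beside -0.01 over all genes. No member was called by limma, and neither was any other gene (0% of 14941). At an unadjusted p under 0.05, 10 members were lower and none higher, against 3.47% of all genes lower. For 5 members every BDNF array lay below every GFP array, against 1.54% of all genes.

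Those 5 can be followed array by array. Tmem125 read 6.28, 6.30, 6.24 and 6.29 with BDNF and 6.77, 6.95, 6.58 and 6.81 with GFP. The BDNF arrays were nearly equal and all GFP arrays lay above them, with a log2 difference of -0.50 ± 0.11 (SE, n = 4 per group, limma unadjusted p = 7.97e-04, adjusted p = 0.901). Gpr37 read 9.04, 8.98, 9.03 and 9.01 with BDNF and 9.19, 9.36, 9.36 and 9.39 with GFP, a difference of -0.31 ± 0.09 (SE, n = 4 per group, adjusted p = 0.901).

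Evi2a read 8.77, 8.57, 8.47 and 8.53 with BDNF and 8.80, 9.13, 8.91 and 8.85 with GFP, a difference of -0.34 ± 0.11 (SE, n = 4 per group, adjusted p = 0.901). Its highest BDNF array and its lowest GFP array nearly met. Aspa read 8.02, 7.86, 7.86 and 7.81 with BDNF and 8.13, 8.39, 8.20 and 8.37 with GFP, a difference of -0.39 ± 0.12 (SE, n = 4 per group, adjusted p = 0.901). For Ppp1r14a, given above, the difference was -0.43 ± 0.14 (SE, n = 4 per group, adjusted p = 0.901).

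By role, all 15 sheath and junction genes, all 6 enzymes and all 4 genes of the cytoskeleton group had lower means with BDNF in hippocampus, with medians of -0.30, -0.24 and -0.19. Mog differed by -0.43 ± 0.20, Mag by -0.40 ± 0.16 and Mobp by -0.37 ± 0.19 (SE, n = 4 per group), each with overlapping arrays. Of the factors, Nkx6-2 (-0.33), Sox10 (-0.27) and Myrf (-0.22) were lower, Olig2 differed by -0.03 and Olig1 by 0.01. Pdgfra was at 0.08 ± 0.08 and Cspg4 at -0.12 ± 0.12.

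Other oligodendrocyte genes had a median of -0.17, with 36 of 39 lower and 12 lower at an unadjusted p under 0.05, none of them called. The largest were Klk6 (-0.69) and Serpinb1a (-0.44). Of 13 microglial genes 12 were lower too, with a median of -0.37, led by C1qa (-0.64) and Tyrobp (-0.54). Microglial means per array ranged from 8.58 to 8.98 with BDNF and from 8.62 to 9.38 with GFP. Whether the microglial and the oligodendrocyte values are linked was not tested.

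Single arrays carried parts of this difference. Replicates 3 and 4 of the BDNF group were the lowest hippocampal arrays for 16 of the 30 mature members, and GFP replicates 3 and 4 the highest for 7 and 9. GFP replicate 1 lay with the BDNF arrays for Mog (6.90) and Mobp (10.80). Leaving out any single array of the compared groups kept the median between -0.20 and -0.36, with no member called.

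In entorhinal cortex the same comparison gave a median of -0.05, with 24 of 32 members lower. No member was called and none reached an unadjusted p under 0.05 (limma), against 0% and 3.88% of all genes. The median rested on single arrays and lay between -0.15 and 0.13 over all alternatives. It was 0.13 without BDNF replicate 3, the low array described above, and 0.04 without GFP replicate 1, which was the highest entorhinal array for 9 mature members. Mobp differed by -0.12 ± 0.63 and Ermn by -0.28 ± 0.60 (SE, n = 4 per group), so that the standard errors were larger than the differences.

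**Figure D4:**
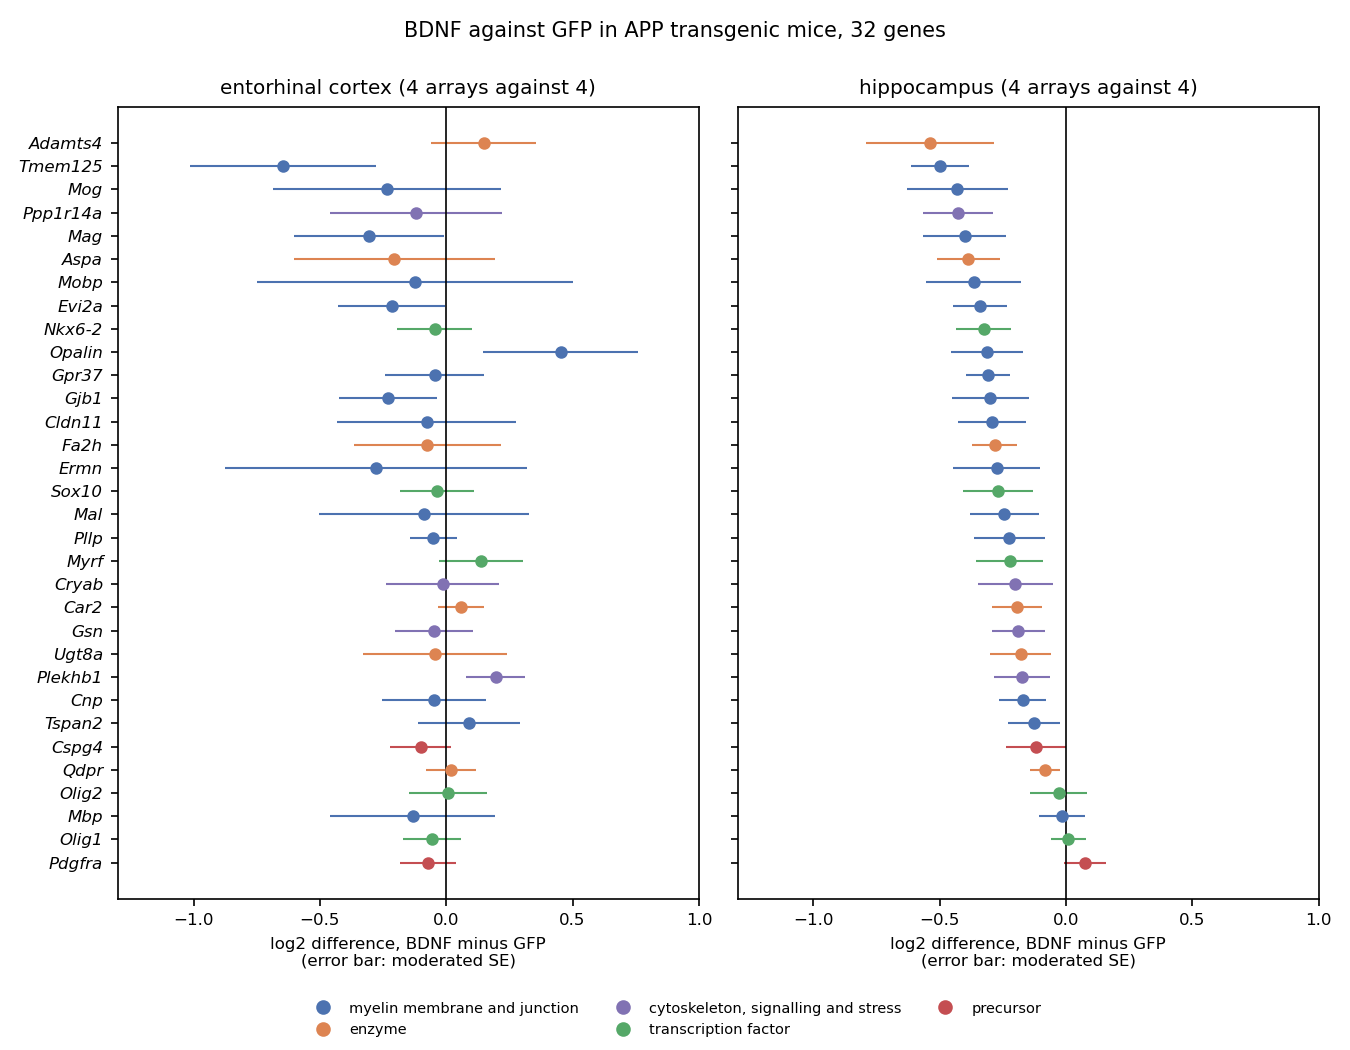
Log2 difference between BDNF and GFP in transgenic mice (horizontal axis, moderated SE as error bars, 4 arrays against 4) for 32 genes in entorhinal cortex (left) and hippocampus (right), ordered by the hippocampal value. In hippocampus 30 genes lie left of 0 with short error bars, in entorhinal cortex 24 do with error bars up to 0.63, and no gene was called in either region.

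The difference of the BDNF effect between the regions was tested in 1 fit of all 26 arrays. The effect was less negative or more positive in entorhinal cortex for 27 of 32 members, by a median of 0.18, and no member was called (0% of all genes). Opalin (0.77 ± 0.36, SE, limma unadjusted p = 0.0432) and Plekhb1 (0.37 ± 0.17, SE, limma unadjusted p = 0.0383) were under an unadjusted 0.05, which is 2 of 32 members beside 4.03% of all genes. Opalin had a mean of 7.17 with BDNF and 6.71 with GFP in entorhinal cortex, and of 7.86 and 8.17 in hippocampus. The median fell to 0.02 without entorhinal BDNF replicate 1 and rose to 0.38 without entorhinal BDNF replicate 3.

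The third comparison set transgenic mice against the 5 non-transgenic arrays of a region, 2 with the GFP vector and 3 from sham mice. All transgenic mice had a vector, so the transgene is not fully separated from the vector here. With the GFP vector, in entorhinal cortex 22 of 32 members were higher, by a median of 0.10, and in hippocampus 19 were, by a median of 0.03. Single members of entorhinal cortex differed by up to 0.57 ± 0.43 (Mog; SE, 4 arrays against 5). Both medians rested on single arrays. The entorhinal one was 0.0040 without non-transgenic GFP replicate 2, 0.02 without transgenic GFP replicate 1, 0.17 without non-transgenic GFP replicate 1 and 0.18 without transgenic GFP replicate 4. The hippocampal one was below 0 without non-transgenic GFP replicate 2 (-0.03), transgenic GFP replicate 3 (-0.0037) or transgenic GFP replicate 4 (-0.02), and 0.11 without transgenic GFP replicate 1. The choice of controls moved it as well. Against the non-transgenic GFP arrays alone the hippocampal median was 0.135, the highest over the alternatives. No member was called, beside 0.0134% and 0.0402% of all genes. At an unadjusted p under 0.05 (limma) there were 2 members in each region, Pdgfra and Olig1, beside 4.76% and 4.49% of all genes. Both were lower in transgenic mice in both regions.

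Pdgfra was lower in transgenic mice with GFP, at -0.32 ± 0.10 in entorhinal cortex (limma unadjusted p = 0.0104, adjusted p = 0.935) and at -0.26 ± 0.08 in hippocampus (limma unadjusted p = 0.00544, adjusted p = 0.795; SE, 4 arrays against 5). With BDNF the same control arrays gave -0.39 ± 0.10 in entorhinal cortex and -0.18 ± 0.08 in hippocampus. Olig1 was lower with GFP, at -0.25 ± 0.11 in entorhinal cortex and -0.15 ± 0.06 in hippocampus, and with BDNF, at -0.30 ± 0.11 and -0.14 ± 0.06. In hippocampus its mean was 10.97 with GFP and 10.98 with BDNF in transgenic mice. There it was 11.00 in non-transgenic mice with GFP and 11.20 in sham mice, so the difference lay mainly against the sham arrays. In entorhinal cortex the means of Olig1 in the same order were 10.74, 10.69, 10.94 and 11.03. The vectors share their controls, so these pairs are not independent.

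Both vectors were therefore pooled as 8 transgenic arrays, a comparison chosen after these values were seen. All 8 entorhinal transgenic arrays of Pdgfra (9.46 to 9.97) lay below all 5 non-transgenic ones (10.03 to 10.33), and so did those of Olig1 (10.25 to 10.91 against 10.91 to 11.06). For Olig1 the highest transgenic and the lowest non-transgenic array nearly met, at 10.907 and 10.911. That is 2 of 32 members beside 0.181% of all genes, counted in the lower direction only. Both members were picked for low values on the same transgenic GFP and control arrays, so this share is no test. The log2 differences were -0.35 ± 0.09 for Pdgfra (SE, 8 arrays against 5, adjusted p = 0.363) and -0.28 ± 0.09 for Olig1 (adjusted p = 0.391), and no member was called, beside 0.0402% of all genes. At an unadjusted p under 0.05 (limma) there were 3 of 32 members, Plekhb1 being the third, a smaller share than the 11.2% of all genes.

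In hippocampus 6 of the 8 transgenic arrays of Pdgfra lay below all non-transgenic ones. The difference was -0.22 ± 0.07 (SE, 8 arrays against 5, adjusted p = 0.602), that of Olig1 was -0.15 ± 0.05 (adjusted p = 0.746), and no member was called, beside 0.0602% of all genes. No member was without overlap there, against 0.0870% of all genes. An unadjusted p under 0.05 (limma) was reached by 4 members, Mal and Tspan2 being the others, beside 5.58% of all genes. For the mean of the 12 other precursor genes the arrays of the genotypes overlapped, with 7.77 to 7.96 in transgenic and 7.90 to 8.01 in non-transgenic hippocampus. They also did in entorhinal cortex, with 7.98 to 8.21 in transgenic and 8.04 to 8.34 in non-transgenic arrays. Group means were nonetheless lower in transgenic mice. In hippocampus they were 7.85 with BDNF and 7.89 with GFP, against 7.91 in non-transgenic mice with GFP and 7.98 in sham mice. In entorhinal cortex they were 8.07 and 8.11 against 8.13 and 8.28. This difference of means was not tested.

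Transgenic mice with BDNF differed from non-transgenic ones chiefly in the direction of the hippocampal genes. All 32 members were lower in hippocampus, by a median of -0.21, with no member called (0.0535% of all genes). The mean over the mature members was 9.02 with BDNF, 9.147 in non-transgenic mice with GFP and 9.32 in sham mice. Non-transgenic GFP replicate 2, at 9.003, lay inside the BDNF range of 8.93 to 9.145. Transgene, BDNF and vector were not separated by this comparison. An unadjusted p under 0.05 (limma) was reached by 11 members, all lower, against 3.43% of all genes. Mal was lower, at -0.40 ± 0.13, Aspa at -0.36 ± 0.12 and Nkx6-2 at -0.33 ± 0.10 (SE, 4 arrays against 5, adjusted p from 0.644 to 0.663). Among the other enzymes of myelin lipids, Acer2, an alkaline ceramidase, was called lower, at -0.43 ± 0.06 (SE, 4 arrays against 5, adjusted p = 0.0294).

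In entorhinal cortex the corresponding median was 0.07, with 22 of 32 members higher. No member was called, beside 0.0402% of all genes, and 3 of 32 members were under an unadjusted 0.05 (limma), a smaller share than the 13.2% of all genes. They were Pdgfra and Olig1, lower, and Plekhb1, higher by 0.31 ± 0.11 (SE, 4 arrays against 5, adjusted p = 0.303). The median was -0.09 without BDNF replicate 1, -0.0033 without BDNF replicate 2, -0.04 without non-transgenic GFP replicate 2 and 0.28 without BDNF replicate 3, so its direction rested on single arrays. The difference of the transgene effect between regions called no member (0% of all genes) and none was under an unadjusted 0.05 (limma), beside 2.01% of all genes.

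The last comparison concerned the vector itself, with 2 GFP arrays against 3 sham arrays of non-transgenic mice. In hippocampus 25 of 32 members were lower with GFP, by a median of -0.18. No member was called (0.0335% of all genes). Myrf (-0.43 ± 0.17), Ugt8a (-0.38 ± 0.16), Fa2h (-0.35 ± 0.12) and Olig1 (-0.20 ± 0.09; SE, 2 arrays against 3) were lower at an unadjusted p under 0.05 (limma), 4 of 32 beside 5.35% of all genes. Adjusted p-values of these 4 ran from 0.457 to 0.530. Without GFP replicate 2 of hippocampus the median was -0.03, and without GFP replicate 1 it was -0.33.

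In entorhinal cortex 24 of 32 members were lower with GFP, by a median of -0.10. No member was called (0.0201% of all genes) and none was under an unadjusted 0.05 (limma), beside 2.95% of all genes. Here 1 of the 2 GFP arrays was a low array described above. The median was 0.24 without it and -0.40 without the other one.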

How the data were processed

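RNA of 26 samples was read on Affymetrix mouse arrays. The deposited values are log2 expression, made by the authors with RMA per the submitters' processing notes, which name no version. There were 45101 probe sets, of which 34958 carry 1 gene symbol, 932 several and 9211 none in the platform annotation. Genes whose mean lay under the 30th percentile (4.33) were left out. limma 3.58.1 in R 4.3.3 fitted 4 group means over the 13 arrays of a region, or 8 over all 26 for the region difference and for differences of effects, with Benjamini-Hochberg adjustment over 14941 genes; called means an adjusted p under 0.05. The script was tested on simulated data. The labels call replicates biological but tie no arrays to 1 animal, so p-values treat arrays as independent; the number of arrays limits the precision.

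Members and gene lists were chosen with earlier results of these data known. Every member is named; array values are given for a fixed set of markers and for the 3 called members with the largest region difference per direction. The members without overlapping arrays under BDNF were added after their values were seen. Genes of other lists are named only for some lists and comparisons, mostly up to 4 called genes, or the 2 largest where none was called. Alternatives covered filters, normalization, probe set choice, array weights, a replicate block and each array left out.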

Additional observations from a re-analysis of the deposited data

Results flagged for a closer look

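In 4 of 144 groups of 4 arrays tested, 1 array stood far from the other 3; chance flags about 1 in 20 groups. Olig2 read 6.81 on entorhinal replicate 3 of the transgenic BDNF group, against 7.41 to 7.48 on the others. Pdgfra read 9.09 on hippocampal replicate 3 of the transgenic GFP group, against 9.32 to 9.33. The mean of the cytoskeleton, signalling and stress members was 9.34 on entorhinal replicate 1 of the transgenic GFP group, against 8.87 to 8.94. The mean of the astrocyte list was 10.50 on hippocampal replicate 1 of the transgenic BDNF group, against 10.46 on the others.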

How the results depend on the processing

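Between the regions, 28 to 31 of the 32 members were called over 39 alternatives, fewest in the non-transgenic groups alone, and the median stayed between -1.11 and -0.83. In each of the other comparisons no member was called under any alternative run. No member changed direction between the regions, but values that were not called often did elsewhere. Over the alternatives, both signs occurred for 24 of 32 members under BDNF in entorhinal cortex and 3 in hippocampus, for 14 and 26 in transgenic mice with GFP against non-transgenic mice, for 17 and 2 with BDNF, for 24 and 16 in GFP against sham, and for 12 and 13 in the differences of the BDNF and transgene effects. For the named members 3 values missed the threshold, all for the region difference: Olig1 and Cspg4 in the non-transgenic groups alone and Cspg4 in the transgenic groups alone. With the replicate number as a block, 31 members were called between the regions and 0 in each other comparison. In fits over both regions this block paired the entorhinal and hippocampal arrays of the same group and number. Samples of the same number and region did not deviate together (32 pairs, median r 0.01). Nor did those of the same group in the other region (13 pairs, median r -0.16), so the main fits did not take the numbers as pairs. The medians of the entorhinal comparisons depended on single arrays. Pooling both vectors and testing all probe sets singly were chosen after seeing the data.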
